A study of Mus musculus with 6 samples.

Results

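The tripartite motif (TRIM) genes were compared between wild type (WT) macrophages and macrophages with a knockout of progranulin (PGRN KO). Progranulin is a secreted growth factor-like protein, and its gene is Grn. Members were the protein-coding rows of the expression table whose symbol is Trim followed by a digit, 68 of 54532 genes in all. The series holds 3 WT libraries (replicates 1, 2 and 3) and 3 PGRN KO libraries (replicates 4, 5 and 6), all of the C57BL/6J strain by their labels. Every library came from cells seeded at 2000000 per well and exposed in vitro to Candida albicans for 6 hours, at 1 fungal cell per macrophage, so the data compare genotypes under challenge and hold no baseline. By the methods of the study, the knockout mice and the WT mice came from different suppliers, and genotype and source of the animals cannot be told apart. Neither ages nor the number of mice behind a library were found in the labels or methods, so that p-values measure the spread between these libraries.

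TRIM proteins share a RING domain, B-box domains and a coiled coil, and most are ubiquitin ligases: the RING domain recruits a ubiquitin-loaded E2 enzyme, and the domain at the C-terminal end picks the substrate. Many members with a PRY-SPRY domain at this end act in antiviral defence and in the control of innate signalling, and a number of them are induced by interferon in macrophages. Others have tasks outside immunity, among them the chromatin corepressor Trim28 and the NHL-domain protein Trim3.

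Values are FPKM (fragments scaled by gene model length and library size), and 26 of the 68 members had a mean of at least 1 FPKM over the 6 libraries and were tested. Of the other 42, 27 had some fragments, with means of 0.00393 to 0.970 FPKM, and 15 were listed at 0 in all libraries. The libraries held 15996786 to 17551619 fragments, and a tested member had 69.5 to 15928 fragments per library on average, with a median of 469. As a check of the labels, Grn was at 323, 337 and 325 FPKM in WT and at 0.0166, 0 and 0.0167 FPKM in PGRN KO. An exact two-sided permutation test gave p = 0.1 for Grn, the smallest that 3 against 3 libraries allow, and tests below are therefore those of a limma model fitted to log2(FPKM + 1) of all 8882 genes with a mean of at least 1 FPKM. On this scale the fold change of a low gene is understated.

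The labels give the cells as peritoneal macrophages, whereas the methods of the study describe cells grown from bone marrow. The study text also gives another ratio of fungal cells to macrophages than the labels, which were followed. All 8 general macrophage markers were present, with Adgre1 at 162 to 195 FPKM. Of these, Csf1r was lower in PGRN KO (means 32.5 and 24.7 FPKM in WT and PGRN KO, limma adjusted p 0.0178). Mertk was higher (1.41 and 3.24 FPKM, 0.00640), and the others did not pass. Gata6, the transcription factor of large peritoneal macrophages, was at 3.78 to 5.07 FPKM, but Timd4 of the same cells did not exceed 0.204 FPKM. Icam2, also of this list, was higher in PGRN KO (3.10 and 5.10 FPKM, limma adjusted p 0.00914). The sum of the list was 6.98 to 7.61 in WT and 9.27 to 10.1 in PGRN KO. Markers of other cells were mostly low, and their sums were separate between the genotypes in each list below except that of T cells. The summed FPKM of 4 B cell markers was 1.41 to 2.47 in WT and 6.31 to 8.77 in PGRN KO, that of 4 mast cell markers 1.42 to 2.25 and 6.08 to 8.73, that of 4 T cell markers 1.88 to 2.47 and 2.14 to 4.74, and that of 4 mesothelial and fibroblast markers 0.316 to 0.572 and 0.694 to 1.34. That of 4 dendritic cell markers was 1.77 to 2.23 in WT and 1.08 to 1.36 in PGRN KO, with Cd209a at 0. The neutrophil list summed to 48.3 to 53.0 in WT and 21.2 to 26.0 in PGRN KO, nearly all of it S100a8, with Ly6g at 0. Some low markers went against the sum of their list. By the means in WT and PGRN KO, the mesothelial markers Msln (0.103 and 0.0705) and Upk3b (0.0169 and 0.00546) fell. So did Timd4 (0.149 and 0.0258) and Selp (0.0690 and 0.0574) of the large peritoneal macrophage list. Of the mast cell list Kit fell (0.345 and 0.210), while Zbtb46 of dendritic cells (0.550 and 0.698) and S100a9 of neutrophils (0.0432 and 0.182) rose. The part of these cells in the results on TRIM genes was not tested, and in bulk RNA a change in the number of cells of a type cannot be told apart from a change in RNA per cell.

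Of the 26 tested members, 8 were significantly higher and 1 was significantly lower in PGRN KO (limma adjusted p under 0.05), which is 30.8% and 3.85% of them. One of the 8, Trim6, was tested only through its level in PGRN KO, and among the 25 members with both group means at or above 1 FPKM 7 were higher (28.0%). Over all 8882 tested genes 24.2% passed, 10.4% higher and 13.8% lower. The higher members were Trim14, Trim26, Trim21, Trim30c, Trim12c, Trim6, Trim12a and Trim34a, and the lower member was Trim13. The median log2 fold change was 0.16 over the tested members and -0.03 over all tested genes. Libraries of the genotypes were fully separate for 12 of the 26 members, 9 of them higher and 3 lower in PGRN KO, where 48.8% of all tested genes were separate, 21.2% higher and 27.6% lower.

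**Figure D1:**
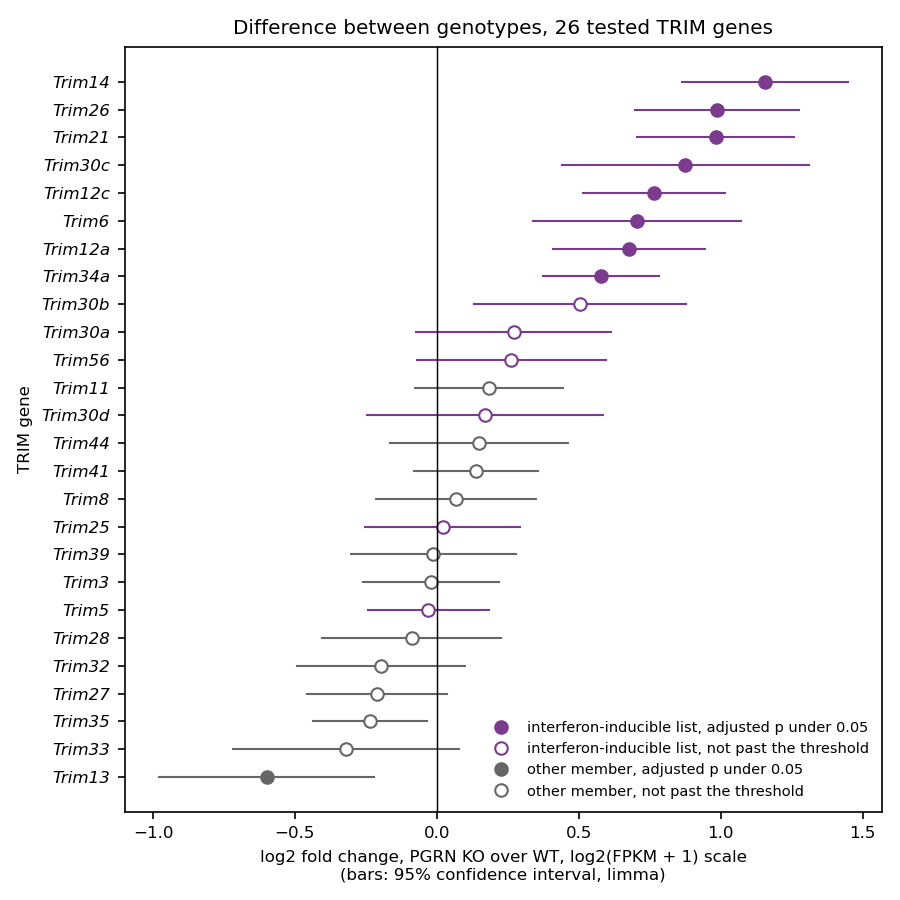
Log2 fold change of PGRN KO over WT on the log2(FPKM + 1) scale for the 26 tested TRIM genes, with 95% confidence intervals from limma; filled points passed an adjusted p of 0.05 and purple points belong to the list of interferon-inducible members. The 8 higher members are all purple and lie between 0.58 and 1.16, and the 1 lower member, Trim13, lies at -0.60.

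The 8 higher members all belonged to a list of 17 TRIM genes known to respond to interferon. This list was chosen with earlier results of these data known, so its counts describe the members and are no independent support. Of this list 14 were tested, 8 were higher, 6 did not pass, and none was lower, also at an unadjusted limma p under 0.05. Without Trim6 the count was 7 of 13 (53.8%), beside 10.4% higher and 13.8% lower over all tested genes. Of the 12 other tested members none was higher, at an unadjusted p under 0.05 either, Trim13 was lower and 11 did not pass. With sample quality weights, however, Trim41 of these 12 was higher (limma adjusted p 0.0453). The median log2 fold change was 0.63 over the 14 list members and -0.05 over the 12 others. By the domain at the C-terminal end, the 8 higher members were all among the 18 tested PRY-SPRY members (7 of 17, or 41.2%, without Trim6). All tested members of the interferon list but Trim56 are PRY-SPRY members, so this count restates that of the list. Of the tested PRY-SPRY members off the list, Trim11, Trim27, Trim35, Trim39 and Trim41, none was higher in the main fit. None of the 8 tested members outside this class, Trim28 and Trim33 with PHD and bromodomains, Trim3 and Trim32 with NHL repeats, Trim8, Trim56, Trim44 and Trim13, was higher. With so few members, none higher among these 8 or the 12 above is not far from the 10.4% of all tested genes.

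Because interferon acts on many of its targets through the interferon-stimulated response element (ISRE), promoter windows from RefSeq (GRCm38.p6, 250 bases before to 50 bases after a gene start) were searched on both strands for a pair of GAAA runs with any 2 bases between them. A window was found for 20 of the 26 tested members, and 8 of these held a match, against 3.99% of the 27025 genes with a window. The 27025 genes were not filtered by expression. Over all members with a window, tested or not, 9 of 53 held a match. Matches were present for 5 of 7 higher members with a window and for 3 of 13 other tested members with a window. All 8 tested members with a match are on the list of interferon-inducible members. No match was found for a tested member off that list. The counts thus follow the list, which was chosen with earlier results known, and are no separate support. The stretches below are shown to give the matches of members that passed and of members that did not, among them Trim12a and Trim5 with the same stretch. They are written 5′ to 3′ on the strand of the gene, and capitals mark the match, which reads as TTTC runs where it lies on the other strand.
Trim21, chr7:102565444-102565473, minus strand: agaggaaactGAAAGTGAAAtttggactgc
Trim26, chr17:36836976-36837005, plus strand: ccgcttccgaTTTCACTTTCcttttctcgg
Trim34a, chr7:104244457-104244486, plus strand: tggtttggagTTTCAGTTTCttttctctgc
Trim12a, chr7:104315466-104315495, minus strand: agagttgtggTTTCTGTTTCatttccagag
Trim12c, chr7:104353359-104353388, minus strand: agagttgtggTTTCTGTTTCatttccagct
Trim5, chr7:104288136-104288165, minus strand: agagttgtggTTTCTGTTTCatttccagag
Trim30a, chr7:104465210-104465239, minus strand: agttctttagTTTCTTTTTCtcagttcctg
Trim30d, chr7:104507871-104507900, minus strand: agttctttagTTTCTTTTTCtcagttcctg
Trim21 and Trim26 each hold a second match that overlaps the one shown, and Trim30a has a second match in another window. The stretches of Trim12a and Trim5 differ at 0 of 30 bases and those of Trim12c and Trim5 at 2, and those of Trim30a and Trim30d differ at 0. The letters TTCNNNGAA of the gamma-activated site were found for 1 of the 20 tested members with a window, Trim30c, and in 9.55% of all genes with a window. No match says only that the letters are absent from these windows.

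Trim14, an adaptor without a RING domain that acts at the mitochondrial signalling protein Mavs, had the largest log2 fold change among the tested members on the log2(FPKM + 1) scale. It was at 3.13, 3.38 and 3.13 FPKM in WT replicates 1, 2 and 3 and at 10.1, 7.91 and 7.35 FPKM in the PGRN KO libraries 4, 5 and 6. All 3 PGRN KO libraries lay above all WT libraries, with means of 3.21 ± 0.146 and 8.46 ± 1.45 FPKM (SD, n = 3 each). Trim14 thus rose by 1.16 ± 0.12 (SE) on the log2 scale (limma adjusted p 0.00206). Trim14 (ENSMUSG00000039853, chromosome 4, 46493781 to 46536141, GRCm38) shares 31.3% of its exon bases with Nans on the opposite strand, and the counting is not stated to use strand. Nans itself was at 7.47 ± 0.559 and 7.83 ± 2.04 FPKM, with a limma adjusted p of 0.880.

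Trim26, a PRY-SPRY ligase of the major histocompatibility region, was at 7.08, 8.50 and 6.96 FPKM in WT and at 17.9, 13.9 and 16.0 FPKM in PGRN KO. The groups were separate, and the mean rose 2.12-fold (log2 fold change 0.99 ± 0.12 (SE), limma adjusted p 0.00335). Trim26 (ENSMUSG00000024457) lies on chromosome 17 at 36837134 to 36859398.

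Trim21, which binds antibody-coated pathogens in the cytosol through the Fc part of the antibody and marks them for degradation, was at 12.8, 13.4 and 10.9 FPKM in WT and at 26.8, 22.4 and 26.9 FPKM in PGRN KO. Again the groups were separate, and the mean rose 2.05-fold (log2 fold change 0.98 ± 0.12 (SE), limma adjusted p 0.00294). Trim21 (ENSMUSG00000030966, chromosome 7, 102557921 to 102565486) lies near, but outside, the cluster of TRIM genes described next.

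**Figure D2:**
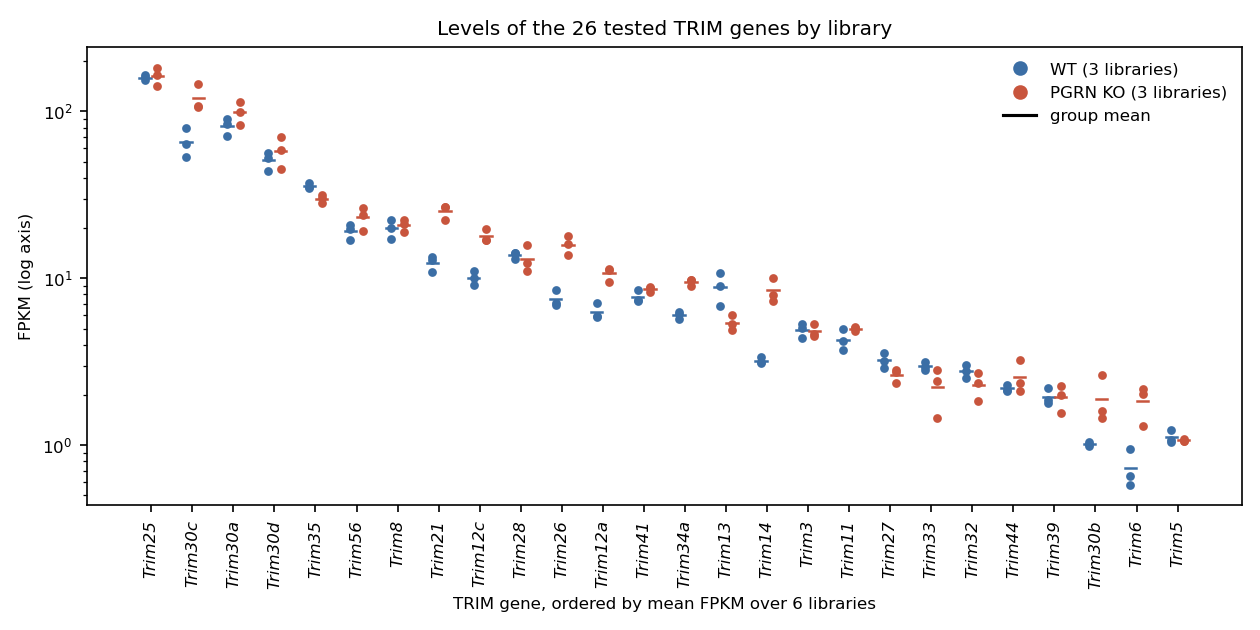
FPKM of each library on a log axis for the 26 tested TRIM genes, ordered by mean level; points are libraries (blue WT, red PGRN KO) and short lines are group means. Trim25 has the highest mean (161 FPKM), with overlapping groups, and Trim14, Trim26 and Trim21 show the libraries of the genotypes apart.

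The largest cluster of members, 10 genes within 289 kb of chromosome 7, holds the paralogs of Trim5, Trim6, Trim12, Trim30 and Trim34. It was picked out by position alone, and 9 of its genes were tested. Of these, 5 were significantly higher and 4 did not pass (4 of 8 higher without Trim6). Over all tested genes 10.4% were higher and 13.8% lower. All 9 tested genes of the cluster are also on the list of interferon-inducible members. The cluster counts are thus part of the 8 higher among 14 given above and are no separate result on position. From the Trim6 end the log2 fold changes were 0.70 for Trim6, 0.58 for Trim34a, -0.03 for Trim5, 0.68 for Trim12a, 0.76 for Trim12c, 0.50 for Trim30b, 0.88 for Trim30c, 0.27 for Trim30a and 0.17 for Trim30d. Higher members and members that did not pass thus lay side by side on the chromosome.

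**Figure D3:**
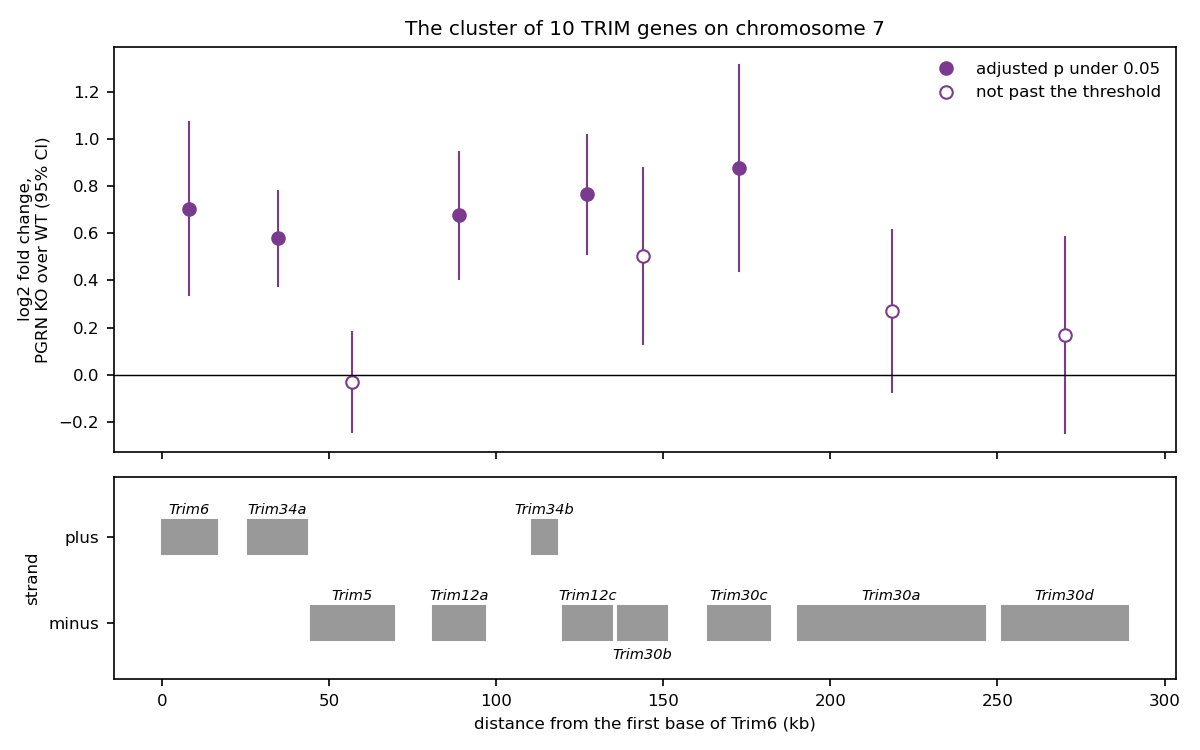
Log2 fold change of PGRN KO over WT with 95% confidence intervals (top) and positions of the genes on each strand (bottom) along the chromosome 7 cluster, in kb from the first base of Trim6; filled points passed an adjusted p of 0.05. Trim5 lies at -0.03 between Trim34a at 0.58 and Trim12a at 0.68, and Trim34b was too low to be tested.

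Within the Trim30 group, whose member Trim30a is known to restrain Toll-like receptor signalling by degrading Tab2 and Tab3, Trim30c passed the threshold and the other members did not. Trim30c (ENSMUSG00000078616, 104382065 to 104400837) was at 63.6, 79.5 and 53.3 FPKM in WT and at 147, 108 and 107 FPKM in PGRN KO, with separate groups, a log2 fold change of 0.88 ± 0.18 (SE) and a limma adjusted p of 0.0172. Trim30a (ENSMUSG00000030921, 104409025 to 104465193) was at 83.7, 89.8 and 71.5 FPKM in WT and at 115, 99.5 and 83.4 FPKM in PGRN KO. The groups of Trim30a overlapped in PGRN KO replicate 6, and its adjusted p was 0.208, with a 95% interval of the log2 difference from -0.07 to 0.62. Trim30d was at 52.8, 56.4 and 43.8 FPKM in WT and at 70.2, 58.9 and 45.2 FPKM in PGRN KO, and its groups overlapped too (adjusted p 0.510, interval -0.25 to 0.59). Trim30b was low, at 1.01 ± 0.0261 and 1.90 ± 0.648 FPKM (SD, n = 3 each), with separate groups and an adjusted p of 0.0581. The split within the group depended on the setting, since Trim30b passed in several alternatives and Trim30c was lost in 3 of 16.

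The log2 ratio of Trim30c to Trim30a was computed in each library to compare these neighbours, a comparison chosen after their values were seen. It was -0.39, -0.17 and -0.42 in WT and 0.35, 0.12 and 0.35 in PGRN KO, so that Trim30c was the lower of the pair in the WT libraries and the higher in the PGRN KO libraries. The difference of 0.60 had an exact two-sided permutation p of 0.1, the smallest possible here. Of the 31-base words of Trim30c, 5.69% occur in transcripts of other genes, and of those of Trim30a 11.9%.

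Trim12a and Trim12c are rodent relatives of Trim5, the gene whose primate product blocks retroviral capsids. Trim12c was at 10.1, 11.0 and 9.10 FPKM in WT and at 19.7, 16.9 and 16.9 FPKM in PGRN KO, a log2 difference of 0.76 ± 0.11 (SE) (limma adjusted p 0.00480). Trim12a was at 5.94, 7.15 and 5.86 FPKM in WT and at 11.4, 9.46 and 11.2 FPKM in PGRN KO, a log2 difference of 0.68 ± 0.11 (SE) (limma adjusted p 0.00835). Both had separate groups. Trim5 itself was low and overlapped between the genotypes, at 1.23, 1.04 and 1.08 FPKM in WT and 1.10, 1.06 and 1.07 FPKM in PGRN KO (95% interval of the log2 difference -0.24 to 0.18). The log2 ratio of Trim12c to Trim5, also chosen after the values were seen, was 2.28 to 2.55 in WT and 3.11 to 3.30 in PGRN KO (exact two-sided permutation p = 0.1, the smallest possible). These genes share much sequence, with 48.1% of the words of Trim12c, 53.2% of those of Trim5 and 16.0% of those of Trim12a found in transcripts of other genes, so that the division of reads between them is uncertain.

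At the other end of the cluster, Trim34a was at 5.72, 6.31 and 6.09 FPKM in WT and at 9.78, 8.95 and 9.82 FPKM in PGRN KO, a log2 difference of 0.58 ± 0.09 (SE) (limma adjusted p 0.00569). Of its words 68.5% occur elsewhere, mostly in Trim34b, which had 5.5 fragments per library on average. Trim6, which builds free ubiquitin chains that promote interferon signalling, was at 0.953, 0.580 and 0.657 FPKM in WT and at 2.18, 2.02 and 1.30 FPKM in PGRN KO, a log2 difference of 0.70 ± 0.16 (SE) (limma adjusted p 0.0198). Its groups were separate, but its WT mean of 0.730 FPKM was under the filter, so that Trim6 was tested only through its level in PGRN KO.

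Trim13, a ligase of the endoplasmic reticulum membrane, fell. It was at 9.02, 10.7 and 6.78 FPKM in WT and at 4.90, 6.05 and 5.30 FPKM in PGRN KO, with separate groups, a log2 fold change of -0.60 ± 0.16 (SE) and a limma adjusted p of 0.0363. WT replicate 3 lay closest to the PGRN KO libraries. Of its words 28.7% occur in the gene model Gm9359. The call was lost in 6 of 16 alternatives (limma adjusted p 0.00599 to 0.125 over all of them). These were WT replicates 1 and 2 (0.125 and 0.116) and PGRN KO replicates 4 and 5 (0.0942 and 0.0545) left out, no filter (0.0984) and the TPM scale (0.0528).

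The most abundant member did not differ significantly. Trim25, which ubiquitinates the RNA sensor RIG-I, was at 161, 165 and 153 FPKM in WT and at 182, 165 and 141 FPKM in PGRN KO, and the PGRN KO libraries spanned the WT range on both sides (limma adjusted p 0.907, 95% interval of the log2 difference -0.25 to 0.29). The log2 ratio of Trim21 to Trim25, chosen after the values were seen, was -3.70 to -3.53 in WT and -2.82 to -2.35 in PGRN KO (exact two-sided permutation p = 0.1, the smallest possible). Trim25 lies on chromosome 11, 13.4 Mb from Grn. It is the nearest of the 3 tested members of this chromosome, and Trim41 and Trim11, at 53.6 and 43.4 Mb, did not pass either (adjusted p 0.307 and 0.259).

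Trim56, a ligase that promotes signalling through STING, was at 19.7, 20.7 and 16.9 FPKM in WT and at 26.5, 24.0 and 19.1 FPKM in PGRN KO. PGRN KO replicate 6 lay within the WT range and the adjusted p was 0.211, with an interval of -0.07 to 0.60. Trim28, which with Setdb1 silences retroelements, was at 14.2, 13.0 and 14.2 FPKM in WT and at 12.4, 11.0 and 15.7 FPKM in PGRN KO, with overlapping groups (adjusted p 0.654, interval -0.41 to 0.23). Trim35 was at 34.5, 37.0 and 35.0 FPKM in WT and at 30.3, 31.5 and 28.3 FPKM in PGRN KO. Although the groups of Trim35 were separate, the difference of -0.24 on the log2 scale did not pass (adjusted p 0.0870).

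PGRN KO replicate 6 was the lowest of the 3 PGRN KO libraries for 18 of the 26 tested members, between the others for 4 and the highest for 4. Over the 8882 tested genes its deviation from the mean of all 6 libraries went with gene length (Spearman coefficient across genes -0.47). The coefficient was 0.15 to 0.24 in the other libraries. The deviations of a gene cancel over the libraries, so these values partly mirror that of replicate 6. They also include any difference between the genotypes. The part of gene length or RNA quality in the results on members was not tested beyond the correction for length given next. With PGRN KO replicate 6 left out, 13 members passed, 11 higher and 2 lower, where 41.3% of all tested genes passed. With sample quality weights 17 members passed, beside 47.6% of all tested genes, and with a correction for gene length 11, beside 31.8%. The 4 members added without PGRN KO replicate 6 were Trim30a, Trim30b, Trim56 and Trim35, with limma adjusted p of 0.0353 for Trim30a, 0.0227 for Trim56 and 0.0321 for Trim35. Trim30b also passed with voom, sample quality weights, the correction for gene length and protein-coding genes only. Of the higher members, 6, Trim14, Trim26, Trim21, Trim12c, Trim12a and Trim34a, passed in each of the 16 alternatives. Trim30c was lost without WT replicates 1 and 3 (0.0712 and 0.0618), and Trim6 without WT replicates 2 and 3 (0.0810 and 0.0736) and PGRN KO replicates 4 and 5 (0.0579 and 0.0569). Without a filter on low values both were lost as well (0.0555 and 0.0674).

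Among the 42 members below the filter, Trim36, which has a COS box and a fibronectin domain, was at 1.28, 1.07 and 1.14 FPKM in WT and at 0.595, 0.523 and 0.489 FPKM in PGRN KO. It had 41 to 50 fragments in a PGRN KO library, and when all 22912 genes with any value were tested it was lower in PGRN KO, by -0.50 on the log2 scale (limma adjusted p 0.0411). Trim68 was at 0.0688, 0.175 and 0.303 FPKM in WT and at 0.548, 0.425 and 0.416 FPKM in PGRN KO, with separate groups and an adjusted p of 0.112 in that fit. Trim47 had separate groups too, with means of 0.807 and 1.08 FPKM. The 3 interferon-inducible members below the filter were Trim69, with means of 0.490 and 0.230 FPKM, Trim34b, and Trim38, which was listed at 0.

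Finally, genes that work with TRIM proteins were examined in 4 lists, 52 genes of which 43 were tested, 8 higher and 8 lower. This is 18.6% in each direction, beside 10.4% higher and 13.8% lower over all tested genes. The counts include Ube2d1, which was higher, and Ube2e2, both tested only through their levels in PGRN KO. In the list of TRIM proteins with other gene names, 2 of 8 genes were tested and 1 passed. Pml, the organiser of nuclear bodies, rose from 21.4 ± 2.26 to 37.8 ± 6.19 FPKM (SD, n = 3 each; limma adjusted p 0.0102). Mid1, a microtubule-associated ligase, did not pass (adjusted p 0.128).

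Of the E2 enzymes that serve RING ligases, 10 of 12 were tested, with 2 higher and 2 lower (20.0% each, beside 10.4% and 13.8% of all tested genes). The 10 include Ube2d1, among the higher genes, and Ube2e2, both tested only through their levels in PGRN KO. Ube2e2 had means of 0.862 and 1.23 FPKM in WT and PGRN KO and did not pass (limma adjusted p 0.138). Ube2l6, which conjugates the ubiquitin-like protein ISG15, rose from 44.1 ± 4.96 to 87.4 ± 17.9 FPKM (limma adjusted p 0.00818), and Ube2d1 from 0.886 ± 0.0676 to 1.90 ± 0.255 FPKM (0.00802), which like Trim6 was tested only through its level in PGRN KO. Ube2n, which builds chains through lysine 63, fell from 17.7 ± 0.820 to 13.1 ± 0.761 FPKM (limma adjusted p 0.0173), and Ube2d3 from 20.9 ± 0.627 to 17.0 ± 0.0508 FPKM (0.0381). The call of Ube2d3 was kept in 7 of 16 alternatives and that of Ube2n in 11.

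Of 23 substrates and partners 22 were tested, with 3 higher and 4 lower. These shares of 13.6% and 18.2% lie near the 10.4% and 13.8% of all tested genes. The higher genes were Rnf135, a further ligase of RIG-I, at 1.75 ± 0.133 and 4.03 ± 0.727 FPKM, the ISG15 ligase Herc6 at 7.59 ± 1.21 and 13.7 ± 1.88 FPKM, and Ddx58, which encodes RIG-I, at 34.6 ± 4.93 and 56.5 ± 6.78 FPKM in WT and PGRN KO (limma adjusted p 0.00569, 0.0109 and 0.0140). The lower genes were Rara, a nuclear receptor bound by Trim24, at 16.7 ± 0.754 and 10.9 ± 1.48 FPKM, the adaptor Ticam1 at 14.2 ± 0.594 and 9.57 ± 0.478 FPKM, Trp53 at 15.3 ± 0.446 and 10.5 ± 0.763 FPKM, and Smad4, a target of Trim33, at 31.2 ± 0.795 and 21.9 ± 2.24 FPKM (limma adjusted p 0.0129, 0.00726, 0.00893 and 0.0144). The call of Smad4 was kept in 11 of 16 alternatives, and those of Rara and Ddx58 in 14. Tab2 and Tab3 did not pass, with adjusted p of 0.312 and 0.331.

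In the list of interferon receptor, kinase and transcription factor genes all 9 were tested, with 2 higher and 2 lower (22.2% each, beside 10.4% and 13.8% of all tested genes). The kinase gene Tyk2 rose from 2.50 ± 0.0868 to 4.41 ± 0.574 FPKM (limma adjusted p 0.00866) and Stat2 from 44.0 ± 2.57 to 64.8 ± 7.61 FPKM (0.0157). The kinase gene Jak1 fell from 63.0 ± 2.84 to 40.9 ± 5.99 FPKM (limma adjusted p 0.0146) and Irf8 from 54.7 ± 2.51 to 36.9 ± 6.65 FPKM (0.0293). Of 16 alternatives, the call of Irf8 was kept in 11, that of Jak1 in 12 and that of Stat2 in 13. Irf9, a partner of Stat2 at the ISRE, was at 20.6 ± 1.02 and 20.0 ± 0.678 FPKM and did not pass (0.745). The number of genes past the threshold in the 4 lists together was 16, where 24.2% of all tested genes passed. It varied with the library left out, as did the share of all tested genes. Without WT replicates 1, 2 and 3 it was 6, 10 and 8, beside 8.03%, 9.63% and 9.94% of all tested genes. Without PGRN KO replicates 4, 5 and 6 it was 14, 15 and 25, beside 15.6%, 18.0% and 41.3%.

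**Figure D4:**
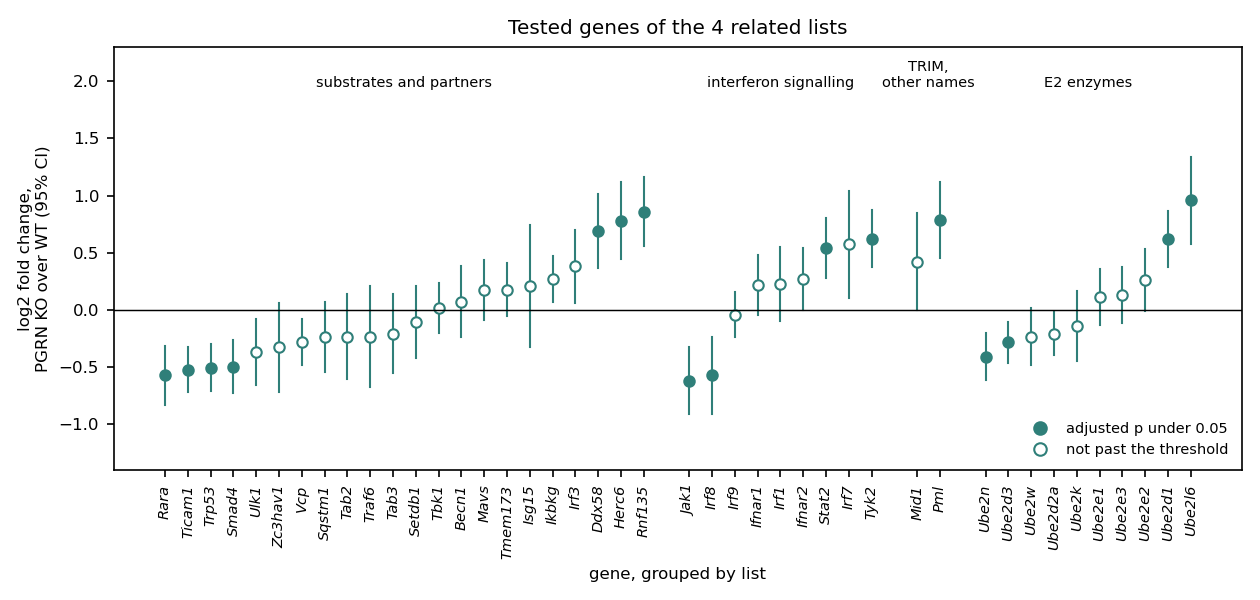
Log2 fold change of PGRN KO over WT with 95% confidence intervals for the 43 tested genes of the 4 related lists; filled points passed an adjusted p of 0.05. Ube2l6 lies highest at 0.96, and Jak1 lowest at -0.62.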

How the data were processed

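RNA libraries of 3 WT and 3 PGRN KO macrophage samples were analysed. The authors deposited FPKM per gene and library. Per the submitters' processing notes, HISAT2 2.0.5, featureCounts 1.5.0-p3 and DESeq2 1.20.0 were used with mm10 (GRCm38), whereas the methods of the study name HISAT and HTSeq. All 68 members were found by identifier in GENCODE M21, 66 with the same coordinates. FPKM times gene length gave whole fragments (tolerance 0.001 of a step) for 100% of values above 0.

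The genotype comparison used limma (version 3.58.1, R 4.3.3) on log2(FPKM + 1), with a variance trend and no covariates, for genes with a mean of at least 1 FPKM, with Benjamini-Hochberg adjustment over all tested genes (threshold 0.05). The test was tested on simulated data. The members and gene lists were chosen with earlier results of these data known. Named members were those past the threshold, the 5 most abundant, and Trim21, Trim25, Trim28, Trim30a and Trim56, beside Grn and up to 10 genes past the threshold in each related list. Others named were chosen after their values were seen. Alternatives were a pseudocount of 0.1, no filter, a mean of at least 5 FPKM, a TPM scale, quantile normalization, counted fragments as library size, voom, sample quality weights, a loess correction for gene length (span 0.5), protein-coding genes only, and leaving out each library. One gene of the related lists is not reported here and was left out of their counts.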

Additional observations from a re-analysis of the deposited data

How the results depend on the processing

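No paired analysis was run, because the replicate numbers, 1 to 3 in WT and 4 to 6 in PGRN KO, give no pairing. Sample quality weights, which gave PGRN KO replicate 6 a weight of 0.0899, called 17 members (13 higher, 4 lower), 4225 of all genes and 29 genes of the related lists. Without a filter the median log2 fold change of members was 0.023 and 1366 of all genes passed, from more genes tested. The median was 0.27 with a mean of at least 5 FPKM and 0.25 with counted fragments as library size. On the TPM scale 0 members were lower by limma (1 at an unadjusted p under 0.05), since Trim13 had an adjusted p of 0.0528. Trim28 was at 0.0034 with counted fragments as library size and at -0.22 to 0.017 with 1 library left out, the latter without PGRN KO replicate 5. Trim25 was at -0.006 without WT replicate 3 and at -0.065 without PGRN KO replicate 4. None of these values was significant, but with sample quality weights Trim28 was lower (limma adjusted p 0.0420).

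Leaving out each library gave 7 to 13 members (6 to 11 higher, 0 to 2 lower), a median of 0.12 to 0.22, 713 to 3668 of all genes and 6 to 25 genes of the related lists. Over the named members, 212 comparisons kept direction and call, 14 lost the call, 9 gained it and 4 changed sign. Where no reason is given, the cause was not tested. Members below the filter had at most 96.0 fragments per library on average.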
